A study of Mus musculus with 36 samples.

Results

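The epithelial sodium channel, a subunit of the sodium pump and the enzyme that guards the channel's hormonal control were followed along the mouse intestine. The channel is built from alpha, beta and gamma subunits, encoded by Scnn1a, Scnn1b and Scnn1g. Atp1b1 encodes the beta-1 subunit of the sodium pump, and Hsd11b2 encodes the type 2 11-beta-hydroxysteroid dehydrogenase. The members were taken as every probe set that the array annotation gives to one of these symbols, which yielded 5 of the 15964 genes that have a probe set of 1 symbol. They were measured by 7 of the 36701 probe sets tested. Scnn1a, Scnn1b and Scnn1g each had 1 probe set, and Atp1b1 and Hsd11b2 each had a pair. The array sets are called A, B and C: Atp1b1 and Hsd11b2 were on A, Scnn1b on B, and Scnn1a and Scnn1g on C.

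The samples were colon, ileum, jejunum and duodenum of male Hsd:ICR(CD-1) mice aged 8 weeks that ate standard chow (Harlan Teklad diet 2018S) without restriction. There was no treatment or mutant group. Each segment was represented by 3 samples, each the pooled total RNA of whole segments from 10 mice, and each sample was hybridised to array sets A, B and C, which gave 36 arrays. The colon was not split into proximal and distal parts, although the channel is known to be most active in the distal colon. The samples hold the whole wall, so epithelium, muscle, nerves and immune cells all contributed RNA.

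In tight epithelia such as the distal colon, sodium enters the cell from the lumen through the epithelial sodium channel and leaves at the opposite face through the sodium pump. Aldosterone acts on the mineralocorticoid receptor to raise this transport. The receptor also binds glucocorticoids, and Hsd11b2 converts these to inactive forms, which leaves the receptor to aldosterone. Nedd4l marks the channel for removal from the membrane, Sgk1 restrains Nedd4l, and proteases cut the alpha and gamma subunits and open the channel.

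The values are intensities on a linear scale that the authors had scaled to a common mean. The median intensity of an array was 48.6 to 75.3 on set A, 85.8 to 110.5 on set B and 85.9 to 104.9 on set C. The arrays also carry 19 probe sets for bacterial and yeast transcripts. These read 0.9 to 77.8 on set A (median 10.2), 3.4 to 268.4 on set B (median 22.95) and 6.9 to 456.7 on set C (median 48.2), and whether such transcripts were added to the samples is not given in the sources used here. On all 3 sets, the ileum 1, ileum 3, jejunum 2 and jejunum 3 samples had low 18S control signal, 39.8 to 445 on set A against 1980 to 8402 in the other 8 samples. The labelled segments were checked against known markers. Those given here were all on set A, and markers on set C, of which some did not follow their segment, are given further below. Car1, a colonocyte carbonic anhydrase, averaged 14650 in the colon and 19.3 to 43.7 in the other segments. Fabp6, the ileal bile acid binding protein, averaged 10660 in the ileum, and Pdx1, a transcription factor of duodenum and pancreas, averaged 6.83 to 10.2 in colon, ileum and jejunum and 97.0 in the duodenum. Differences are given on the scale of log2(intensity + 16), which shrinks those of dim probe sets. Calls were made with limma where the p adjusted over all probe sets (Benjamini-Hochberg) was below 0.05, and these p-values measure only the spread between pools.

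Hsd11b2 was the member gene whose level differed between segments, and it was high in the colon. Its probe set 100493_at read 519.4, 401.5 and 515.1 in the colon. It read 112.3, 23.1 and 92.0 in the ileum, 19.9, 47.2 and 22.2 in the jejunum, and 28.8, 18.1 and 15.5 in the duodenum. Every colon sample stood above every small-intestinal sample, and the lowest colon value was more than 3 times the highest ileal value. The mean was 479 ± 66.9 in the colon, 75.8 ± 46.8 in the ileum, 29.8 ± 15.1 in the jejunum and 20.8 ± 7.05 in the duodenum (SD, n = 3 each). No bacterial or yeast control read higher than the colon values on their arrays, while 0 to 6 of the 19 did on ileal, 0 to 7 on jejunal and 1 to 10 on duodenal arrays. As ratios of these means, colon stood 6.32-fold over ileum, 16.1-fold over jejunum and 23.0-fold over duodenum, and the last 2 are not exact folds, since most of those low values lay among the controls.

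**Figure D1:**
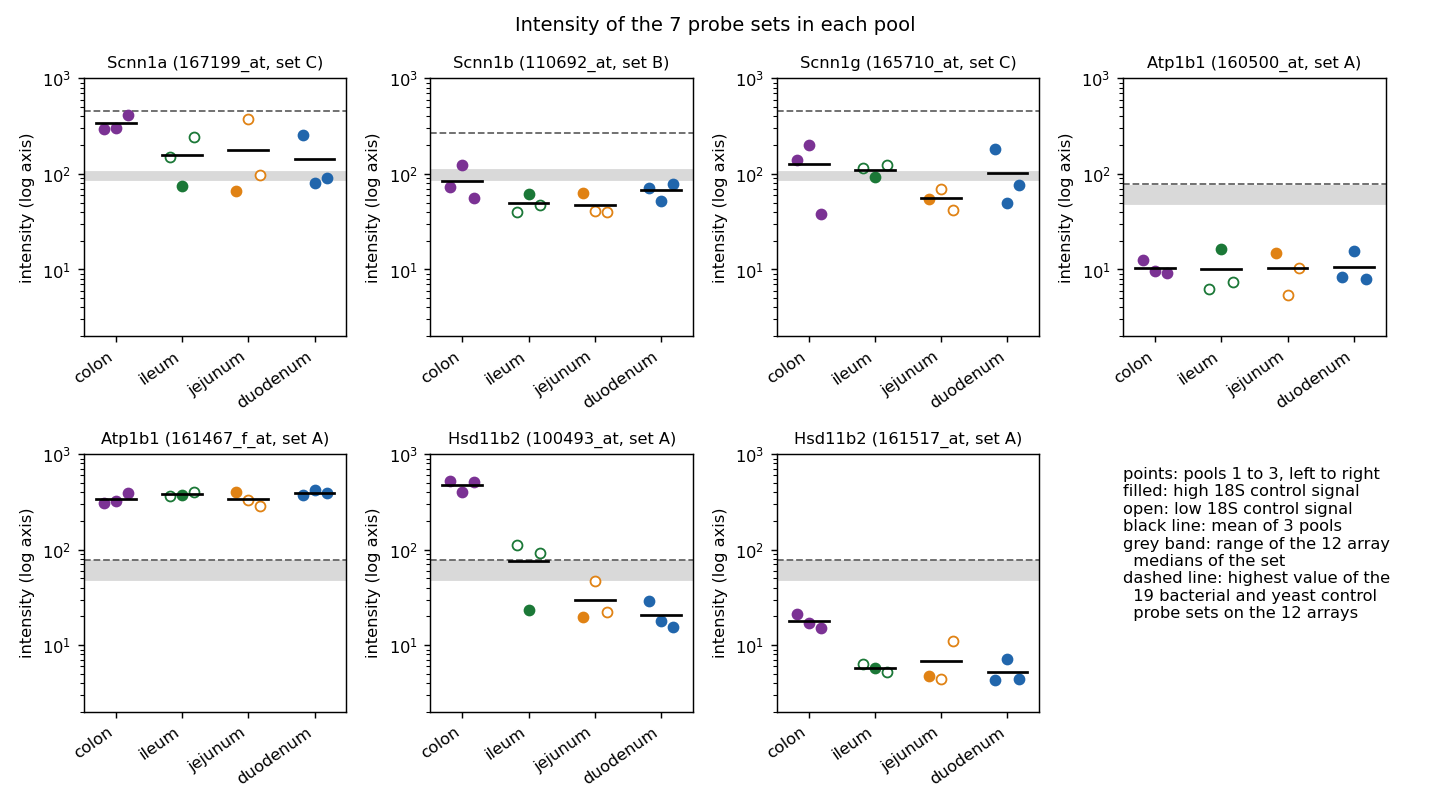
Intensity (log axis) of each of the 7 probe sets in every pool, with colon, ileum, jejunum and duodenum from left to right. Black lines are means of 3 pools, open points are samples with low 18S control signal, the grey band is the range of array medians and the dashed line is the highest bacterial or yeast control value on that array set. Hsd11b2 (100493_at) reads 401.5 to 519.4 in the colon and 15.5 to 112.3 elsewhere, while for each channel subunit some colon points lie among the small-intestinal ones.

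The any-difference test across the 4 segments called 1 of the 7 member probe sets, Hsd11b2 100493_at (adjusted p = 4.2e-05, limma). Of all probe sets tested, 8.82% were called in that test. Colon exceeded the small-intestinal mean, the average of ileum, jejunum and duodenum, by log2 3.27 ± 0.33 (SE, adjusted p = 7.8e-06, limma), with a 95% interval of 2.57 to 3.98. Hsd11b2 supplied both of the member probe sets that were called higher in that comparison, 2 of 7, where 4.44% of all probe sets were. None of the 7 was called lower in limma, where 3.13% of all probe sets were. None of the 7 was lower at an unadjusted p under 0.05 either.

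Each of the pairwise tests of Hsd11b2 100493_at with the colon was called, and these tests share the colon arrays. Colon minus ileum was log2 2.59 (adjusted p = 0.0012, limma), and 1 of the 7 member probe sets was called higher there, against 1.55% of all probe sets. Colon minus jejunum was 3.47 (adjusted p = 3.6e-05), again with 1 of 7 called higher, against 5.81% of all. Colon minus duodenum was 3.76 (adjusted p = 1.9e-05), with 2 of 7 called higher, against 3.34% of all. The order of means was colon, ileum, jejunum, duodenum, but the 3 small-intestinal neighbours were not separated.

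Within the small intestine, the ileal values of Hsd11b2 100493_at were spread widely, with samples 1 and 3 at 112.3 and 92.0 and sample 2 at 23.1. Ileum minus jejunum was log2 0.88 (95% interval 0.02 to 1.75, adjusted p = 0.35, limma). Ileum minus duodenum was 1.16 (0.30 to 2.03, adjusted p = 0.24), and jejunum minus duodenum was 0.28 (-0.58 to 1.15, adjusted p = 0.88). None of the 7 member probe sets was called by limma in these 3 comparisons, which called 2.78%, 1.83% and 0.924% of all probe sets either way, in that order. At an unadjusted p under 0.05, limma picked out 1, 1 and 0 of the 7, in the same order, and Hsd11b2 100493_at was the probe set in both cases. The shares of all probe sets given here are at the adjusted threshold, so these unadjusted counts cannot be set beside them. Sample 2 decided the ileal result: without it, ileum minus jejunum was 1.41 (adjusted p = 0.032) and ileum minus duodenum was 1.69 (adjusted p = 0.015). The ileal samples 1 and 3 are also those with low 18S control signal. Over ileum and jejunum together, Hsd11b2 100493_at read 22.2 to 112.3 in the 4 samples with low 18S signal and 19.9 to 23.1 in the 2 with high 18S signal. In the samples with high 18S signal alone, which leave 1 ileal and 1 jejunal sample, ileum minus jejunum was 0.12 and ileum minus duodenum was 0.10. Blocking on the 18S class gave 0.88 (adjusted p = 0.18) and 0.48 (adjusted p = 0.69).

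The other Hsd11b2 probe set, 161517_at, was dim in all samples and lay below the array median in each. It read 21.0, 17.0 and 15.1 in the colon, 6.3, 5.7 and 5.2 in the ileum, 4.8, 4.4 and 11.1 in the jejunum, and 4.3, 7.1 and 4.4 in the duodenum. The lowest colon value stood above the highest small-intestinal value here too. Its values fell within the range of the bacterial and yeast controls, and at least 5 of the 19 controls read higher on every array. Colon exceeded the small-intestinal mean by log2 0.62 ± 0.15 (SE, adjusted p = 0.015, limma). This call was lost without colon sample 1 (0.55, adjusted p = 0.091), without colon sample 2 (0.64, adjusted p = 0.052) and with arrays centred on their medians (0.45, adjusted p = 0.12). Colon minus duodenum was 0.66 (adjusted p = 0.041), a call lost under 7 of 10 other settings.

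**Figure D2:**
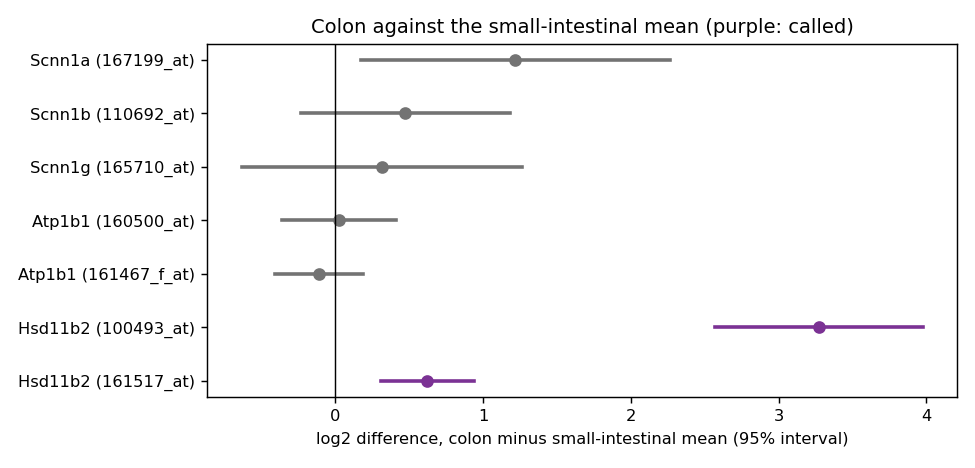
Difference between the colon and the small-intestinal mean on the log2(intensity + 16) scale for each of the 7 probe sets, drawn as the estimate with its 95% interval. Both Hsd11b2 probe sets are called (3.27 and 0.62), and Scnn1a (1.22, interval 0.17 to 2.27) is not called after adjustment.

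Scnn1a encodes the alpha subunit, which the channel needs to conduct well. It read 292.9, 303.8 and 418.7 in the colon. It read 151.9, 73.9 and 245.2 in the ileum, 66.5, 374.7 and 96.9 in the jejunum, and 255.6, 79.7 and 90.5 in the duodenum. The colon values lay above all ileal and duodenal values, and 1 jejunal sample, number 2, lay above colon samples 1 and 2. The mean was 339 ± 69.7 in the colon, 157 ± 85.8 in the ileum, 179 ± 170 in the jejunum and 142 ± 98.6 in the duodenum (SD, n = 3 each). On every colon array at most 1 of the 19 bacterial and yeast controls read higher, while up to 9 did on the small-intestinal arrays.

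Colon minus the small-intestinal mean of Scnn1a was log2 1.22 ± 0.49 (SE), with a 95% interval of 0.17 to 2.27. It had an unadjusted p of 0.026 and an adjusted p of 0.18 in limma and was not called. The difference rested on how the samples with low 18S signal were handled. Blocking on the 18S class gave 1.79 (adjusted p = 0.043, limma). The samples with high 18S signal alone also gave 1.79, where ileum and jejunum keep 1 sample each and are assumed to vary like the other segments. These are the same estimate and not separate checks, since the block leaves this comparison resting on the samples with high 18S signal. Scnn1a read 96.9 to 374.7 in the 4 ileal and jejunal samples with low 18S signal and 66.5 to 73.9 in the 2 with high signal. Without jejunum sample 2 the difference was 1.44 (adjusted p = 0.052), and without colon sample 3 it was 1.06 (adjusted p = 0.48). Its order of mean intensities was colon, jejunum, ileum, duodenum, and no neighbours in it differed beyond their spread. On the log2 scale ileum lay 0.04 over jejunum, whose mean intensity rested on sample 2. The pairwise differences ran from 0.04 to 1.32, with adjusted p between 0.28 and 0.99.

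Scnn1b encodes the beta subunit, which carries a motif bound by Nedd4l. It read 73.6, 124.1 and 56.4 in the colon, 39.9, 62.0 and 47.4 in the ileum, 63.2, 40.5 and 39.8 in the jejunum, and 71.6, 52.3 and 78.1 in the duodenum. Colon sample 2 was the highest of all, and the other colon samples lay among the duodenal ones. The mean was 84.7 ± 35.2 in the colon, 49.8 ± 11.2 in the ileum, 47.8 ± 13.3 in the jejunum and 67.3 ± 13.4 in the duodenum (SD, n = 3 each). Up to 5 of the 19 controls read higher on colon arrays and 3 to 12 on small-intestinal arrays. Colon minus the small-intestinal mean was log2 0.47 (95% interval -0.23 to 1.18, adjusted p = 0.53, limma). The order of means was colon, duodenum, ileum, jejunum, and each neighbouring pair overlapped.

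Scnn1g encodes the gamma subunit, which proteases cut, and lies next to Scnn1b as its neighbouring protein-coding gene in the RefSeq annotation. It read 139.3, 202.6 and 37.7 in the colon. It read 115.6, 92.7 and 124.5 in the ileum, 54.4, 70.1 and 41.9 in the jejunum, and 183.3, 49.6 and 75.7 in the duodenum. The colon held both the highest and the lowest of the 12 values. The mean was 127 ± 83.2 in the colon, 111 ± 16.4 in the ileum, 55.5 ± 14.1 in the jejunum and 103 ± 70.9 in the duodenum (SD, n = 3 each). The order of mean intensities was colon, ileum, duodenum, jejunum, again with overlap between neighbours, and on the log2 scale colon minus ileum was -0.05. Between 3 and 10 of the 19 controls read higher on every array.

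Colon minus the small-intestinal mean of Scnn1g was log2 0.32 (95% interval -0.63 to 1.27, adjusted p = 0.80, limma). It turned to -0.10 without colon sample 2. The 3 ileal values lay above the 3 jejunal ones, but the difference of 0.84 was not called (95% interval -0.32 to 2.00, adjusted p = 0.58, limma). For Scnn1b and Scnn1g, a colonic rise of log2 1 lies within the intervals. Both probe sets stayed under the low-value filter of their array set, and 3 of the 7 member probe sets passed it, those of Scnn1a, Atp1b1 (161467_f_at) and Hsd11b2 (100493_at).

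Atp1b1 encodes the subunit that helps the pump to fold and reach the membrane. Its probe set 161467_f_at read 305.0, 326.3 and 395.3 in the colon, 364.0, 369.7 and 405.5 in the ileum, 403.7, 331.3 and 283.0 in the jejunum, and 376.3, 419.5 and 388.0 in the duodenum. All 12 values lay between 283.0 and 419.5, above each of the controls on their arrays, and all pairs of segments overlapped. The order of means was duodenum, ileum, colon, jejunum. The mean was 342 ± 47.2 in the colon, 379.7 ± 22.5 in the ileum, 339 ± 60.8 in the jejunum and 395 ± 22.3 in the duodenum (SD, n = 3 each).

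Colon minus the small-intestinal mean of Atp1b1 161467_f_at was log2 -0.11 (95% interval -0.41 to 0.19, adjusted p = 0.77, limma). A colonic rise of log2 0.19 or more, or a fall of more than 0.41, lies outside that interval. The suffix of this probe set marks one that may match several related transcripts, so its signal may not be from Atp1b1 alone. The other Atp1b1 probe set, 160500_at, read 5.4 to 16.4 over the 12 samples, below every array median, with means of 10.5 in the colon, 10.0 in the ileum, 10.2 in the jejunum and 10.6 in the duodenum. At least 7 of the 19 controls read higher on each array, and its difference of 0.03 between colon and small intestine changed sign with the scaling (-0.15 with arrays centred on their medians, -0.04 after quantile normalization).

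The other genes of the pathway were followed as 6 lists, with 1 probe set for each gene. The first list held 10 measured genes for other pump subunits and FXYD proteins, which are small modulators of the pump. Of these, 3 were called higher in the colon than the small-intestinal mean and 0 lower in limma, with 0 also at an unadjusted p under 0.05. The median difference was log2 0.29, beside 0.04 over all probe sets. For the counts of this and the later lists and markers, 4.44% of all probe sets were called higher and 3.13% lower in this comparison. For any difference, 8.82% were called. These shares are at the adjusted threshold, so counts at an unadjusted p cannot be set beside them. Fxyd1, a pump modulator known from heart and skeletal muscle, averaged 458 ± 26.6 in the colon, 245 ± 34.4 in the ileum, 233 ± 32.4 in the jejunum and 184 ± 17.3 in the duodenum (SD, n = 3 each), a log2 difference of 1.02 (adjusted p = 0.00025, limma). Fxyd3, a modulator of the pump in epithelia, differed by 0.98 (adjusted p = 0.0039). It averaged 554 ± 99.7 in the colon, 262 ± 30.3 in the ileum, 217 ± 35.5 in the jejunum and 362 ± 116 in the duodenum. Its colon values were called higher against ileum and jejunum but not against duodenum (0.63, adjusted p = 0.16, limma). Atp1b3, which encodes the beta-3 subunit, averaged 709 ± 48.5 in the colon against 541 ± 85.45 in the ileum, 304 ± 14.7 in the jejunum and 498.5 ± 71.1 in the duodenum. The difference was 0.69 (adjusted p = 0.0035). Its colon values were called higher against jejunum only, not against ileum (0.39, adjusted p = 0.31) or duodenum (0.50, adjusted p = 0.096, limma). Ileum was called over jejunum as well (0.79, adjusted p = 0.017, limma). Fxyd4, also called CHIF and known as an aldosterone-responsive modulator of the colon and kidney, read 74.3 to 257.5 in the colon and 28.7 to 232.6 in the small intestine, and its difference of 1.12 was not called (adjusted p = 0.23).

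Of 19 genes for mineralocorticoid signalling and channel regulation, 18 were measured, and 4 were called higher in the colon and 0 lower in limma. Over all probe sets, 4.44% and 3.13% were. At an unadjusted p under 0.05 (limma) the counts were 10 and 2, with no share of all probe sets to set beside them. The median difference was log2 0.43. Nedd4, a ubiquitin ligase related to Nedd4l, averaged 409 ± 58.7 in the colon, 198 ± 33.9 in the ileum, 94.5 ± 15.45 in the jejunum and 147 ± 27.2 in the duodenum (SD, n = 3 each), a difference of 1.44 (adjusted p = 5.7e-05, limma). Its 2 other probe sets were not called, and the lowest of them differed by -0.27. Sgk2, a kinase related to Sgk1, averaged 563 ± 46.2 in the colon and 187 to 368 in the small-intestinal segments, a difference of 1.25 (adjusted p = 0.015). It was called against jejunum and duodenum but not against ileum (0.60, adjusted p = 0.59, limma). The kinases Wnk1 (1.13, adjusted p = 0.0074) and Wnk4 (2.54, adjusted p = 0.011) regulate salt transport and were called too, Wnk1 by 1 of its 5 probe sets. In the pairwise tests with the colon, Wnk1 was called against the jejunum only. Wnk4 was called against ileum and duodenum but not jejunum (1.705, adjusted p = 0.16, limma). It read 297.0 to 702.9 in the colon and 62.2 to 405.8 in the jejunum. The suffix of the Wnk4 probe set marks one that may match several related transcripts.

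Sgk1 and Nedd4l are named here for their roles and after their values were seen. Sgk1 averaged 831 ± 286.5 in the colon and 1141 to 1279 in the small-intestinal segments, and its difference of log2 -0.57 was not called (adjusted p = 0.14, limma). Nedd4l averaged 638 ± 122 in the colon and 438 to 526 in the small-intestinal segments, and its difference of 0.38 was not called either (adjusted p = 0.14), although 1 of its 6 probe sets was. Nr3c2, the gene of the mineralocorticoid receptor, was not analysed here.

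All 9 genes for proteases that act on the channel and their inhibitors were measured, with 2 called higher in the colon and 2 lower (limma) and a median difference of log2 0.01. Klk1, a tissue kallikrein, averaged 7317 ± 454 in the colon, 1214 ± 361 in the ileum, 535 ± 63.8 in the jejunum and 1664 ± 391 in the duodenum (SD, n = 3 each), a difference of 2.84 (adjusted p = 3.7e-08, limma). Its probe set may match related kallikreins, and its other probe set was not called. Tmprss2, a membrane serine protease, differed by 0.65 (adjusted p = 0.020) at 1 of its 4 probe sets, of which the lowest differed by 0.0088, and its colon mean of 631 ± 117 stood near the duodenal mean of 574 ± 127. In the pairwise tests with the colon, Tmprss2 was called against ileum only. Furin, the convertase that cuts the alpha and gamma subunits in the Golgi, was lower in the colon, at 481 ± 17.6 against 571 to 916 in the small-intestinal segments (-0.55, adjusted p = 0.019). Spint1, an inhibitor of membrane serine proteases, was lower too at 1 of its 2 probe sets (-0.83, adjusted p = 0.029). In the pairwise tests with the colon, Furin and Spint1 were each called against jejunum only. Of these lower genes, 1 was called with the 18S class as a block. Prss8, the channel-activating protease, is named for its role and differed by 0.34 (adjusted p = 0.31).

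Of 5 genes of the acid-sensing channels, which are relatives of the sodium channel, 4 were measured. None of Asic1, Asic2, Asic3 and Asic5 was called in limma, also at an unadjusted p under 0.05, and the median difference was log2 -0.17. All but Asic3 stayed under the array median in their highest segment.

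Other routes of sodium entry at the luminal face divided strongly along the intestine. Of 11 genes, 10 were measured, 9 were called for any difference among segments, and 3 were higher and 4 lower in the colon (limma), with a median difference of log2 0.19. Slc6a14, a sodium-coupled amino acid transporter, averaged 2503 ± 666.5 in the colon, 81.9 ± 68.6 in the ileum, 4.20 ± 1.71 in the jejunum and 9.03 ± 3.52 in the duodenum (SD, n = 3 each), a difference of 6.23 (adjusted p = 3.2e-07, limma). Slc9a3 and Slc5a8 were the other genes called higher, and both are named after their values were seen. Slc9a3, the main sodium-proton exchanger of the gut surface, averaged 3622 ± 915 in the colon, 560 ± 288 in the ileum, 1316 ± 414 in the jejunum and 1773 ± 972.5 in the duodenum (1.78, adjusted p = 0.0010). It was called against ileum and jejunum but not against duodenum (1.12, adjusted p = 0.099, limma). Slc5a8, a carrier of sodium with short-chain fatty acids, averaged 249 ± 11.2 in the colon and 214 ± 123 in the ileum, against 9.70 ± 1.30 in the jejunum and 10.0 ± 4.41 in the duodenum (2.37, adjusted p = 0.00050). Its colon values were not called against ileum (0.38, adjusted p = 0.86, limma). Ileum was called over jejunum (2.99, adjusted p = 0.0018) and duodenum (2.98, adjusted p = 0.0013, limma).

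The genes called lower in the colon were Slc6a19, Slc5a1, Slc34a2 and Slc9a3r1, which encodes a scaffold protein and is named after its values were seen (-1.19). Slc6a19, a neutral amino acid carrier of the enterocyte, read 24.7 to 98.4 in the colon and averaged 6683 to 10550 in the small-intestinal segments (-6.78, adjusted p = 6.0e-11, limma). Slc5a1, the sodium-glucose carrier, averaged 449.5 ± 54.9 in the colon, 2289 ± 178 in the ileum, 5159 ± 694 in the jejunum and 3780 ± 684 in the duodenum (-2.93, adjusted p = 1.3e-09). Slc34a2, a sodium-phosphate carrier, averaged 91.8 ± 61.9 in the colon, 2344 ± 423 in the ileum, 159 ± 47.2 in the jejunum and 10.4 ± 2.80 in the duodenum (-1.18, adjusted p = 0.013), so its colon mean lay under that of ileum and jejunum and over that of the duodenum.

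All 12 genes for potassium and chloride transport in the colon were measured, with 2 called higher in the colon, 1 lower (limma) and a median difference of log2 0.26. Slc12a2, the carrier that loads chloride into secreting cells, averaged 1426 ± 78.1 in the colon, 592 ± 248 in the ileum, 354 ± 15.7 in the jejunum and 434.5 ± 143 in the duodenum (SD, n = 3 each), a difference of 1.68 (adjusted p = 0.00015, limma). Kcne3, a partner of a basolateral potassium channel, differed by 1.09 (adjusted p = 0.0037). It was called against ileum and jejunum but not against duodenum (0.61, adjusted p = 0.25, limma). Slc4a4, a sodium-bicarbonate carrier, differed by -0.75 (adjusted p = 0.015) at 1 of its 4 probe sets, a call lost with the 18S class as a block. In the pairwise tests with the colon, Slc4a4 was called against jejunum only. Cftr, the chloride channel, differed by 0.70 and was not called (adjusted p = 0.057).

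**Figure D3:**
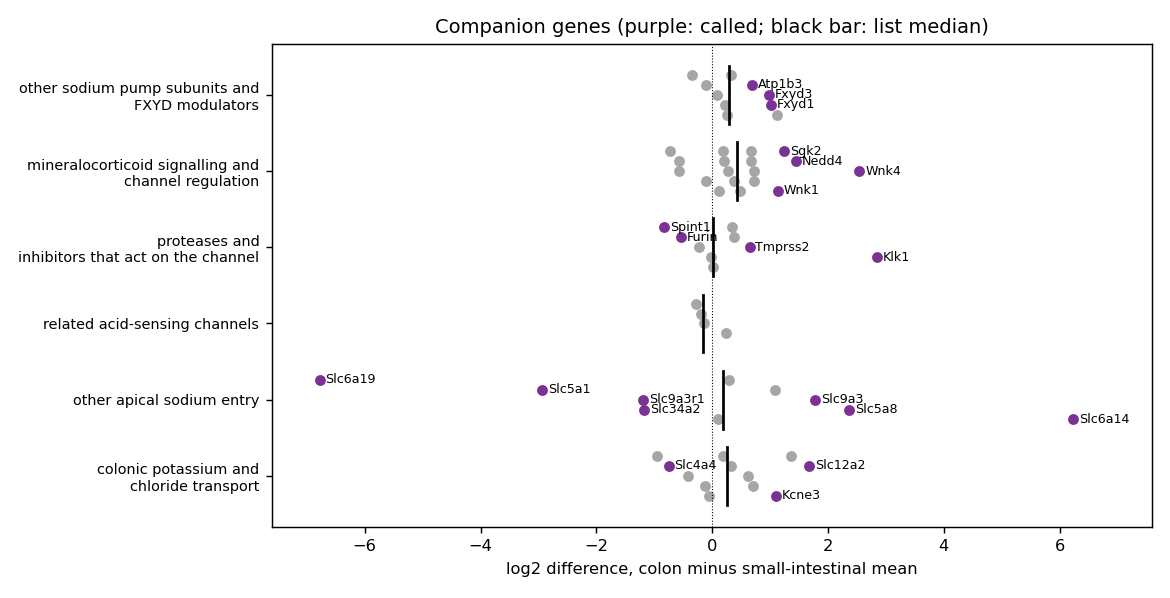
Difference between the colon and the small-intestinal mean on the log2(intensity + 16) scale for each measured gene of the 6 lists, with called genes in purple and named, others in grey, and list medians as black bars. List medians run from -0.17 to 0.43, while single carriers of the apical list reach 6.23 (Slc6a14) and -6.78 (Slc6a19).

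The genes whose profile over the 12 samples came nearest to that of Hsd11b2 100493_at were Sqor, Prnp, Tst, Tagln and Myh11. The 1492 candidates were probe sets of 1 symbol other than Hsd11b2, called for any difference on the same array set. Their means also had to exceed the median of that set, so dimmer genes could not be named. Likeness was the root mean square difference between profiles on the log2 scale after each was centred on its own mean. That distance was 0.42 for Sqor and 0.46 for Prnp, and 0.52, 0.52 and 0.53 for Tst, Tagln and Myh11. Sqor encodes a mitochondrial enzyme that oxidises sulfide, and Tst encodes a sulfurtransferase that detoxifies cyanide. Prnp encodes the prion protein, and Tagln and Myh11 are smooth muscle genes. Sqor averaged 1802 ± 160 in the colon, 276 ± 75.4 in the ileum, 123 ± 29.8 in the jejunum and 142 ± 21.7 in the duodenum (SD, n = 3 each).

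**Figure D4:**
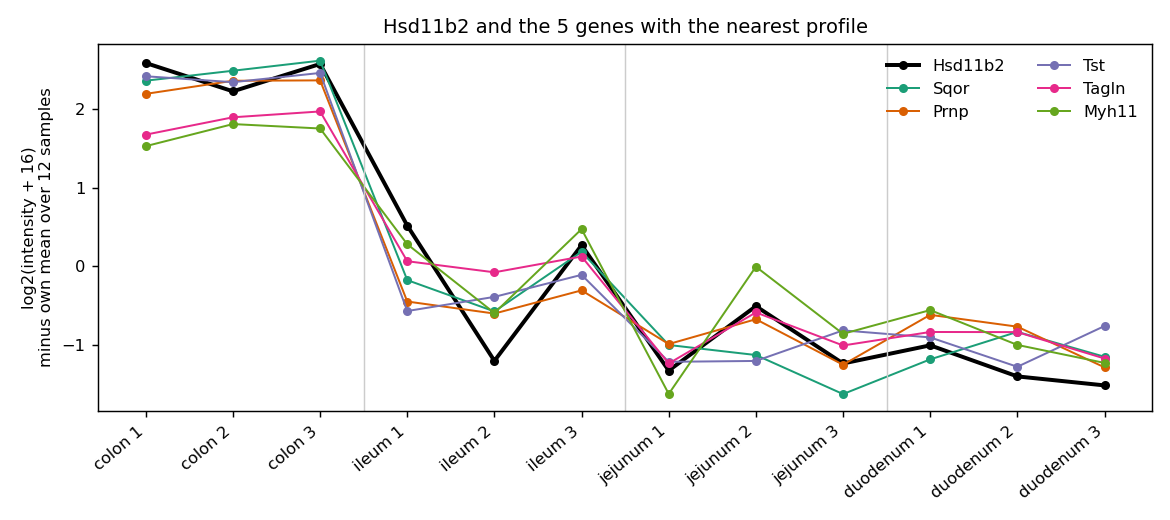
Profiles of Hsd11b2 (100493_at, black) and its 5 nearest genes over the 12 samples, in the order colon, ileum, jejunum, duodenum, as log2(intensity + 16) minus each gene's own mean. All 6 genes are highest in the 3 colon samples, and Hsd11b2 in ileum sample 2 lies below ileum samples 1 and 3.

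Markers of other cell types differed between the colon and the small intestine as well. All 6 smooth muscle markers were called higher in the colon than the small-intestinal mean (limma), with a median difference of log2 2.12. Acta2 and Actg2 were called at 1 of 2 probe sets and Myh11 at 2 of 3. The summed intensity of the 6 markers was 23260 to 27420 in the colon, 7949 to 9865 in the ileum, 4250 to 7181 in the jejunum and 3988 to 5005 in the duodenum. Of 9 general epithelial markers, 0 were called higher (1 at an unadjusted p under 0.05, limma) and 1 lower (Vil1, a brush border protein, -1.37), with sums of 39030 to 47160 in the colon, 48510 to 56350 in the ileum, 40210 to 45640 in the jejunum and 35930 to 38950 in the duodenum.

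Of 6 small-intestinal enterocyte markers, 5 were called lower in the colon (limma), with a median difference of log2 -3.97. The other, Sis on set C, averaged 2844 in the colon and 3025 in the small intestine and was not called (adjusted p = 0.99, limma). Of 4 colonocyte markers, 3 were called higher. The fourth, the anion exchanger Slc26a3 on set C, read 9.0 to 10.6 in the colon, under the set median, although it is known as abundant there. Of 6 immune markers, 0 were called higher (limma, 0 also at an unadjusted p under 0.05) and 3 lower in the colon: Lyz2 (-2.05), Cd3e (-1.53) and Cd74 (-1.44). Lyz2 and Cd3e were each called at 1 of 2 probe sets, and the other probe set differed by 0.062 for Lyz2 and -0.44 for Cd3e. All 6 markers together summed to 1921 to 3417 in the colon, 10700 to 12910 in the ileum, 5661 to 6271 in the jejunum and 4608 to 5545 in the duodenum. Of 4 goblet cell markers, 1 was called higher (Muc2, 2.74) and 1 lower (Tff3, -0.89, at 1 of its 2 probe sets). None of 4 neuron and glia markers was called (limma), and 1 passed an unadjusted p under 0.05. Adipoq, a fat cell marker, averaged 444 ± 82.0 in the colon and 29.2 to 74.7 in the small-intestinal segments (SD, n = 3 each). The sum of 3 exocrine pancreas markers lay between 50.3 and 274.5 in colon, ileum and jejunum, and between 40790 and 49760 in the duodenum. The part of muscle, immune, goblet, fat and pancreatic cells in the levels of Hsd11b2, Fxyd1, Klk1 and the other genes was not tested, and in whole tissue fewer cells of a type and less RNA per cell cannot be told apart.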

How the data were processed

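Per the labels, total RNA of 12 pooled samples of mouse intestine was hybridised to 3 array sets. The deposited values are linear intensities, scaled by the authors to a common mean, since the mean without the highest and lowest 2% of values was 200.1 to 200.2 on every array. The software is not given in the sources used here. Control probe sets were left out of the tests. The title of one set C array says duodenum 3 and its source name says jejunum; the title was followed. Cpa1, a pancreatic gene on set C, read 13110 to 23860 on the 3 arrays titled duodenum and 26.6 to 41.9 on those titled jejunum.

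From the intensities, log2(intensity + 16) was fitted separately on each array set (limma 3.58.1, R 4.3.3), taking the segments as groups and an intensity trend in the variances. The 2-sided p-values of all 36701 probe sets were adjusted together (Benjamini-Hochberg), with calls below 0.05. The fit was tested on simulated data. Symbols came from the array annotation, and 29131 probe sets had 1 symbol, 724 several and 6846 none. A gene of a list was represented by its brightest probe set on set A, else B, else C. Named were all member probe sets, from each list up to 4 genes with the smallest adjusted p for any difference, and the 5 nearest profiles. Members and lists were chosen with earlier results of these data known. The low-value filter keeps probe sets whose mean exceeds the median of the means of their set. All arrays were kept, and precision is limited by their number. Samples with the same number did not clearly deviate together more than others. Of such pairs, 4 of 18 correlated over 0.1 (range -0.20 to 0.15), against 7 of 36 pairs of unlike number (range -0.16 to 0.23). Samples of the same number were therefore not treated as paired. Alternatives were offsets of 1 and 64, median centring, quantile normalization, the filter, no trend, only the segments compared, a replicate block, the 18S class as a block, only samples with high 18S signal, leaving out that set C array, and leaving out each sample.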

Additional observations from a re-analysis of the deposited data

How the results depend on the processing

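The colon calls of Hsd11b2 100493_at held under all alternatives run and without each of the 12 samples: colon minus the small-intestinal mean ranged over log2 2.41 to 3.82 under the alternatives and 3.10 to 3.39 with samples left out. Its any-difference call also held in each. Scnn1a was called with the 18S block at 1.79, which is the same estimate as with high 18S signal only. It ranged from 1.06 to 1.44 with samples left out. The directions that turned were of differences not called in either setting. The low-value filter gives no value for the 4 member probe sets under it. For Atp1b1 160500_at, colon minus the small-intestinal mean was -0.15 with median centring, -0.043 with quantile normalization and -0.17 with the 18S block and with high 18S signal only, and -0.032 to 0.081 with samples left out. Jejunum minus duodenum of Hsd11b2 100493_at was -0.40 with the 18S block and -0.019 with high 18S signal only. For Hsd11b2 161517_at, high 18S signal only gave 0.061 for ileum minus jejunum and -0.029 for jejunum minus duodenum, and ileum minus duodenum was -0.072 with median centring and -0.026 with the 18S block. Its colon minus small-intestinal mean was 0.45 with median centring. Its colon minus duodenum lost its call at 1.59 with an offset of 1, 0.51 with median centring, 0.60 with quantile normalization, and 0.66 with no trend, only the arrays compared, high 18S signal only, and the replicate block. The replicate block (adjusted p = 0.075 there) ended no other member call. With samples left out, Scnn1g in the colon ranged from -0.10 to 0.91. Hsd11b2 100493_at ranged from 0.55 to 1.41 for ileum minus jejunum and from 0.84 to 1.69 for ileum minus duodenum. Hsd11b2 161517_at ranged from 0.55 to 0.68 for the colon against the small intestine, 0.50 to 0.71 against the jejunum and 0.59 to 0.72 against the duodenum, from -0.13 to 0.077 for ileum minus jejunum and from -0.043 to 0.16 for jejunum minus duodenum. Counts of all probe sets called, either way, moved by over 1.5 times in some settings. With high 18S signal only, colon minus jejunum called 1557 (3371 in the main setting), ileum minus jejunum 67 (1020), ileum minus duodenum 383 (671) and jejunum minus duodenum 97 (339). Ileum minus jejunum called 664 with no trend and 376 with only the arrays compared, and jejunum minus duodenum called 213, 180 and, with the 18S block, 208. With samples left out the counts were 1745 to 3064 for colon minus the small-intestinal mean (2778), 384 to 1410 for ileum minus jejunum, 401 to 763 for ileum minus duodenum and 184 to 854 for jejunum minus duodenum. The cause of these changes was not tested. The lists kept their counts with the 18S block and with high 18S signal only, both chosen after seeing the data, to within 1 gene. Low signal limits all values of Scnn1a, Scnn1b, Scnn1g, Atp1b1 160500_at and Hsd11b2 161517_at, and those of Hsd11b2 100493_at in jejunum, duodenum and ileum sample 2, which read within the range of the bacterial and yeast controls of their array set.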
